A study of Mus musculus with 6 samples.

Results

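Transcripts of 9 regulators of the Pax-, Six- and Eya-families were examined in RNA-Seq data of mouse embryonic fibroblasts (MEFs), which are fibroblasts grown from mouse embryos. The genes are *Pax1*, *Pax3*, *Pax7*, *Pax9*, *Six2*, *Six4*, *Six5*, *Eya1* and *Eya2*. They were taken by name from the 25043 genes of the deposited table, and all 9 were found. The list was selected on earlier results of these data, and the RefSeq transcript that stands for each gene was chosen by its highest mean, so the levels are a description. Total RNA had been sequenced from 3 wild type (WT) and 3 *Anp32e* null cultures, all at a passage below 8, the null cells lacking a chaperone that removes the histone variant H2A.Z. The only value used here is the authors' mean over the 6 libraries of read counts that they had divided by a size factor per library. This mean pools both genotypes, so no difference between *Anp32e* null and WT MEFs is given, and no test was made. The genotype of each library analysed here is unknown.

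Pax proteins are transcription factors with a paired DNA-binding domain, the Six-family genes encode homeodomain transcription factors, and Eya proteins are phosphatases that serve these as coactivators. The families act in one network with the Dach corepressors in the embryo, where they direct muscle, vertebra, kidney, ear and neural crest formation. *Pax1* and *Pax9* act in the sclerotome, the source of the vertebrae, while *Pax3* and *Pax7* act in muscle progenitors and the neural crest. *Six2* keeps nephron progenitors of the kidney undifferentiated, and *Eya1* is needed for ear and kidney development.

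The printed means resolved single reads. The lowest means were sums of 6 steps, each the mean that 1 read of 1 library adds, and these steps gave size factors between 0.909 and 1.13. The libraries are called A to F in order of falling size factor, and these letters stand for no genotype. Because the table prints 15 digits, each mean could be traced to the whole reads per library that add up to it. Of the 7623 genes with reads and a mean of up to 90, 7605 had exactly 1 solution (99.76%), none had no solution and 18 had more. These 18 had means from 50 to 90, where 97.45% of genes had 1 solution. The total of reads per library is unknown, so reads can be compared between libraries only through these size factors. The reads behind a value are given beside it, and they carry counting error and the differences between cultures together. The gene targeted in the null cells, *Anp32e*, had a mean of 2190 normalized counts, which is too high for this search, so the genotype labels could not be checked. A mean of at least 10 was reached by 56.9% of all genes of the table. Of 8 fibroblast markers, 7 reached it, from *Dcn* with 144 to *Vim* with 330695, and *Lum* had 1.33.

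The members differed widely in level. Levels of different genes are compared per kilobase of transcript, among 17002 genes with reads and a known transcript length, whose median was 126 normalized counts per kilobase. *Eya1* was the highest, with a mean of 2037 normalized counts or 467 per kilobase, above 68.6% of these genes. *Six5* followed with a mean of 463, or 154 per kilobase, and was the only other member above this median. Against genes with a mean of at least 10, whose median was 338 per kilobase, *Eya1* alone was above. *Six4*, which activates muscle genes, had a mean of 681 but a longer transcript, and reached 106 per kilobase. Its other transcript had a mean of 211. *Six2* had a mean of 160.5 and 75.7 per kilobase.

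Per kilobase, the 4 *Pax* members were all below the 3 Six-family members. *Pax9* had a mean of 136 normalized counts (32.7 per kilobase) and *Pax3* of 85.8 (22.2 per kilobase), above 38.1% and 35% of the genes. *Eya2*, another coactivator of Six-family factors, had a mean of 6.30 (2.56 per kilobase), far from its paralog *Eya1*. *Pax1* had a mean of 4.12 (1.56 per kilobase). *Pax7* was represented by 1 read in all 6 libraries. A pooled mean has no error, so the data do not show which neighbours in this order differ.

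**Figure D1:**
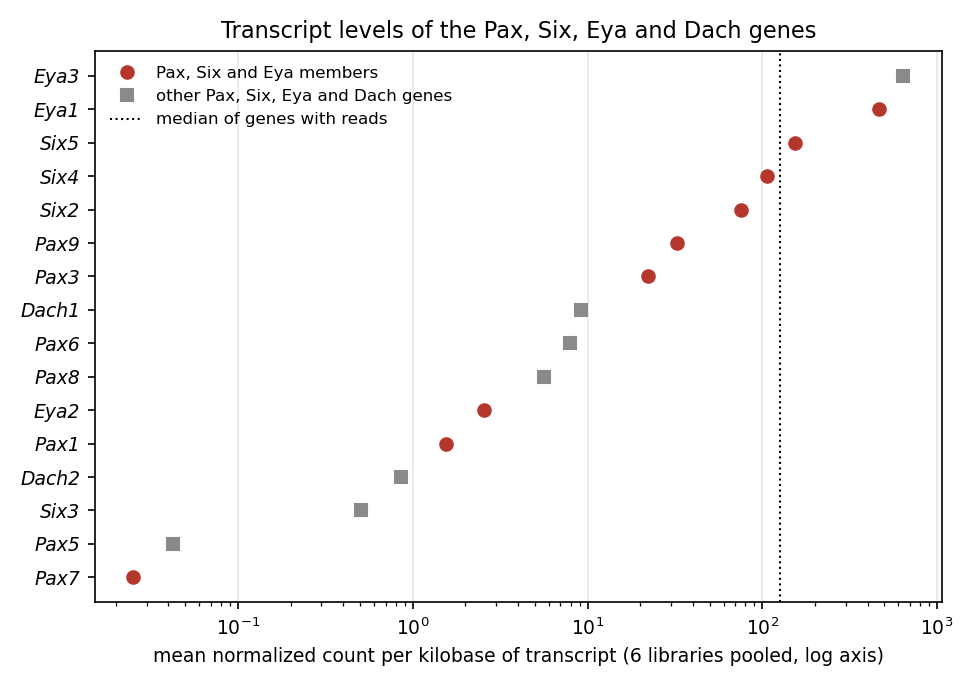
Mean normalized count per kilobase of transcript (log axis, 6 libraries pooled) for the 9 members (circles) and for other Pax-, Six-, Eya- and Dach-family genes with reads and a known length (squares). The dotted line is the median of 126 for genes with reads, and only *Eya1* and *Six5* among the members lie to its right.

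Positions are those of RefSeq on GRCm38, the build that the authors aligned to under its name mm10. *Pax3* lies on chromosome 1 from 78101267 to 78197136 on the minus strand, as does *Eya1* from 14168953 to 14311035. *Pax1* lies on chromosome 2 from 147361930 to 147375049 and *Eya2* on the same chromosome from 165595028 to 165771727, both on the plus strand. *Pax9* (chromosome 12, from 56691693 to 56712824, plus strand) and *Six4* (chromosome 12, from 73099609 to 73114031, minus strand) share a chromosome. *Six2* lies on chromosome 17 from 85662736 to 85688254 and *Pax7* on chromosome 4 from 139737059 to 139833530, both on the minus strand. *Six5* lies on chromosome 7 from 19094544 to 19098549 on the plus strand. In GENCODE M21, 189 exon bases of *Pax9* overlap exons of *Slc25a21* on the other strand, and 183 of *Pax1* those of the antisense gene *AI646519*, which had no reads in the table. The library kit marks strand. The methods name default settings and no strand option for the counting, and featureCounts ignores strand by default. Transcripts of 1 gene had nearly equal means, such as 2036.79 and 2036.48 for *Eya1*, so shared reads appear to count for each. The exact settings are thus not certain. Reads of *Pax9* on this overlap may not be told apart from those of *Slc25a21*, whose mean was 5.69 normalized counts.

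*Pax3* reads were unevenly spread. Its 540 reads were 166 in library A, 194 in B, 20 in C, 138 in D, 6 in E and 16 in F, which gives 147, 184, 19.5, 140, 6.41 and 17.6 normalized counts. Libraries A, B and D were thus far above C, E and F, without overlap. The highest library was 28.8-fold above the lowest, or 10.5-fold with library E left out. Among 688 genes with a mean from 50 to 90 and 1 solution, *Pax3* among them, 2.33% had a ratio of this size or larger. The median ratio was 2.08, and 53.9% reached 2. With a tolerance 10 times as wide as rounding allows, *Pax3* had another solution, with 38, 217, 155, 43, 75 and 0 reads. It lacks the gap between A, B and D and the other libraries. A second *Pax3* transcript had 2 solutions. The closer one was 158, 176, 20, 131, 6 and 16 reads from A to F, and the other, with 30, 199, 155, 36, 75 and 0 reads, lacks the contrast between A, B and D and the other libraries.

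**Figure D2:**
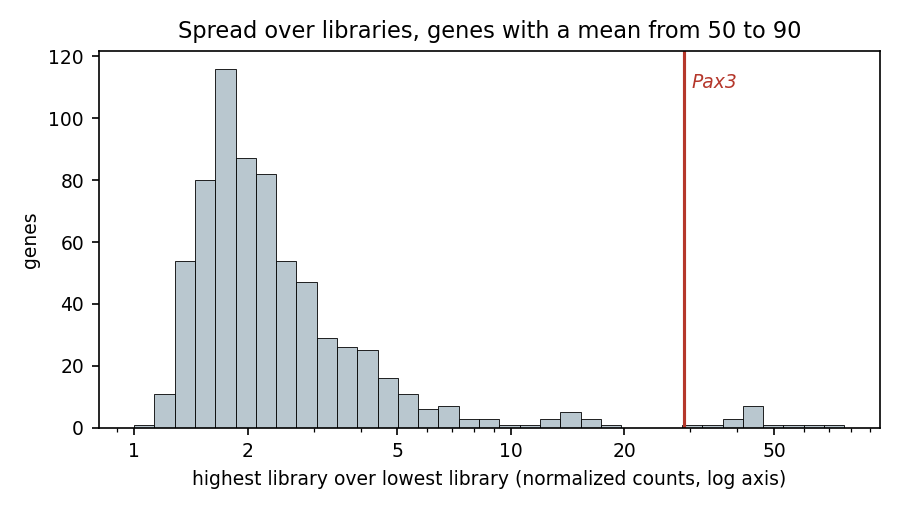
Number of genes (vertical axis) by the ratio of the highest to the lowest library in normalized counts (log axis), for the 688 genes with a mean from 50 to 90 and 1 solution, with lowest values under 3 reads set to 3 reads. The line marks *Pax3* at 28.8, near the right end of the distribution.

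*Pax1*, which had 23 reads, was found in other libraries. It had 0 reads in A, B and D, 4 in C, 3 in E and 16 in F, or 3.89, 3.21 and 17.6 normalized counts in the last 3. A count of 0 allows up to 3 reads in a library. Set against 3 reads in A, library F was 6.64-fold higher, and without library F the value fell to 1.47. This leaves out the counting error of the highest library, which was picked as such, so it is no lower bound. The *Pax1* signal thus rests mostly on 1 library.

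The 38 reads of *Eya2* were 7 in A, 0 in B, 15 in C, 6 in D, 3 in E and 7 in F, which gives 6.19, 0, 14.6, 6.08, 3.21 and 7.70 normalized counts. Its high and low libraries did not follow those of *Pax3* or *Pax1*. Set against 3 reads in B, library C was 5.12-fold above it, a value that fell to 2.70 without library C. As for *Pax1*, this is no lower bound. The single read of *Pax7* was in library A, and *Pax7* was not detectable in the other libraries at this depth.

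For *Pax9* and *Six2* the digits left several solutions, 22 and 48. These were weighted by how 1730 other genes, with 1 solution and a mean from 20 to 90, spread over the libraries. The leading solution took 99.95% of the weight for *Pax9* and 98.32% for *Six2*. The weighting was tried on 399 genes with means from 30 to 60 whose reads were known, with weights from 865 genes. A wider tolerance allowed a similar number of solutions. The leading solution was the right one in 65.4%, and in 32 of the 33 genes where it had at least 95% of the weight. The means of *Pax9* and *Six2* lie above those of all these genes, so this trial does not cover them. The weights use the pattern of other genes, so likeness of these members to other genes is no result.

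The most likely reads of *Pax9* were 296 in A, 240 in B, 44 in C, 200 in D, 49 in E and 27 in F, or 262, 228, 42.8, 203, 52.4 and 29.7 normalized counts. In this solution libraries A, B and D were the highest, with a ratio of highest to lowest of 8.81. This pattern depends on the tolerance of the match. With a tolerance 10 times as wide as rounding allows, these reads kept 18.8% of the weight, and the leading solution (39.2%) was 155, 180, 151, 140, 92 and 111 reads, with a ratio of 1.74. The most likely reads of *Six2* were 141 in A, 139 in B, 218 in C, 112 in D, 189 in E and 162 in F, or 125, 132, 212, 113, 202 and 178 normalized counts. Here C, E and F were the highest, with a smaller ratio of 1.87. With the wider tolerance, this solution still led, but with 34.1% of the weight. The means of *Six4*, *Six5* and *Eya1* are too high for any such choice.

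**Figure D3:**
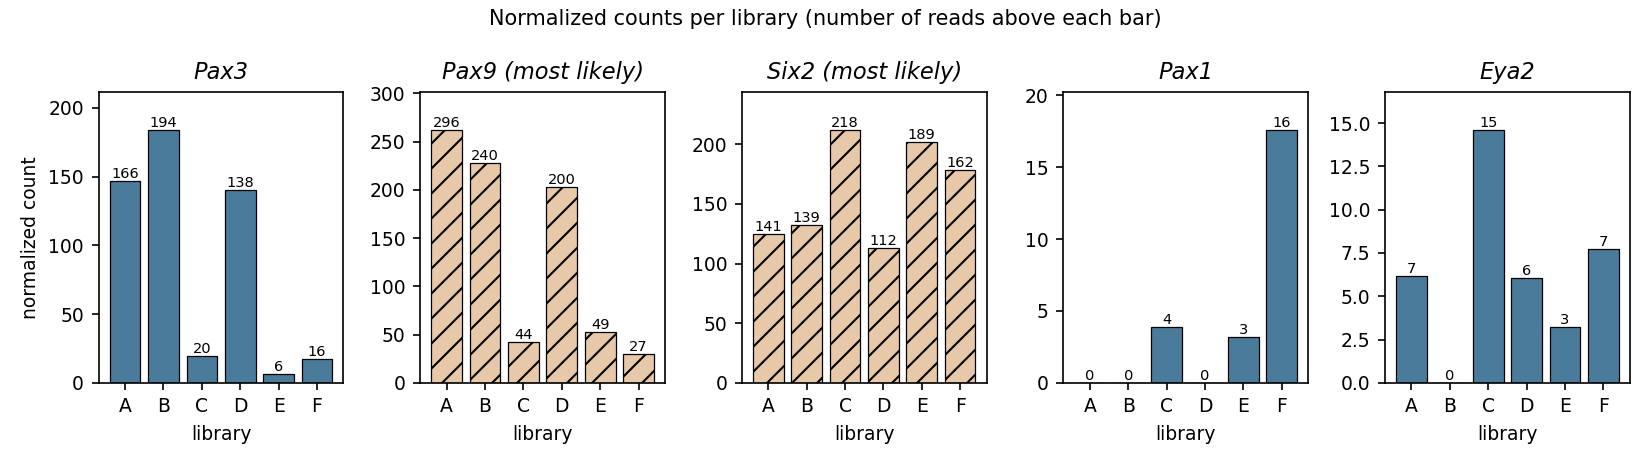
Normalized counts per library (bars, axes from 0, a different scale in each panel) of *Pax3*, *Pax9*, *Six2*, *Pax1* and *Eya2*, with reads printed above the bars. Hatched panels show the most likely of several solutions. *Pax3* is highest in A, B and D, and *Pax1* in C, E and F. The solutions of *Pax9* and *Six2* were chosen by the pattern of other genes, so their likeness to these panels is no result.

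The same libraries stood out in many genes. Of 2576 genes with a mean from 10 to 90 and 1 solution, 21% had their 3 highest libraries in A, B and D and 19.3% in C, E and F. A ratio of highest to lowest of at least 2 was reached by 76.1%. Genes with higher means were not searched, and genes with means under 10, *Pax1* among them, were left out. These shares do not cover either kind. The 3 highest libraries of *Pax3* were thus those of many other genes, whereas few genes of its level reached its ratio. The members were chosen with earlier results of these data known, so this ratio is a description and no measure of how unusual *Pax3* is.

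The bases before the start of *Pax9*, *Pax1* and *Six2* are shown because the table of RefSeq promoters holds them for these 3 members with more than 1 recovered read, and *Pax3* and *Eya2* are not in it. Each sequence is from RefSeq on GRCm38.p6 and covers the 250 bases before the start that this table gives, 5′ to 3′ on the strand of the gene. For *Pax9* and *Pax1* this start lies inside the gene span given above, downstream of its first base, and for *Six2* it is the first base. Capitals mark GC boxes (GGGCGG) and CCAAT boxes (CCAAT), the letters that the factors SP1 and NFY are known to bind, searched on both strands.
Pax9, chr12:56695221-56695470, plus strand: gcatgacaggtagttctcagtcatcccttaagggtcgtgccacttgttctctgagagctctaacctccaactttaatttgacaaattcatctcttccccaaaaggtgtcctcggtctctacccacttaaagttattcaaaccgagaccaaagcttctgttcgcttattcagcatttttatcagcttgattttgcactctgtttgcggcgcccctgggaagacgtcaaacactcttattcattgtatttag
Pax1, chr2:147364744-147364993, plus strand: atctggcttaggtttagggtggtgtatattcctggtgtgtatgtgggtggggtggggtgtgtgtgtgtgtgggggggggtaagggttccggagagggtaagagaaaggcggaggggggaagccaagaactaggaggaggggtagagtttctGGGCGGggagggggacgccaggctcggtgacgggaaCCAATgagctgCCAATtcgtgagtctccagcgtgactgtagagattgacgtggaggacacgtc
Six2, chr17:85688255-85688504, minus strand: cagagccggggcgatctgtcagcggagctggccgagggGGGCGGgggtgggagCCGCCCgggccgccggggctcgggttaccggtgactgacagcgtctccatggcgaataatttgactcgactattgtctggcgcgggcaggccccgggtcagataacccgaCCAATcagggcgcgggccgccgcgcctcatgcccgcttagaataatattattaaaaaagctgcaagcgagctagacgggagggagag

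The *Pax9* stretch had a GC content of 43.6% and neither box. That of *Pax1* had 58.8% GC, 1 GC box and 2 CCAAT boxes, and that of *Six2* had 64.8% GC, 2 GC boxes and 1 CCAAT box. Among 32851 RefSeq promoters of the same length, 32.7% held a GC box and 33.8% a CCAAT box, and the median GC content was 52.4%. The *Pax1* and *Pax9* stretches hold no GENCODE exon, while the last 20 bases of that of *Six2* lie in an exon that GENCODE gives to *Six2*. A match or its absence is a description of these letters only.

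The genes whose shares of counts over the libraries were nearest to those of *Pax3* were *Cryzl2*, *Ppara* and *Sbspon*. Nearness was measured as the summed absolute differences of the 6 shares divided by 2. It covered 2575 other genes with a mean from 10 to 90 and 1 solution, and its median was 41.1%. *Cryzl2*, with 29, 29, 6, 22, 1 and 2 reads from A to F, was 4.91% apart from *Pax3*. *Ppara*, which encodes a nuclear receptor of lipid metabolism, was 5.03% apart and *Sbspon* 5.21%. All 3 are low genes with means between 10.7 and 14.1 normalized counts, so their shares rest on few reads.

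The fourth nearest gene was *Dach1*, a corepressor of the same network. Its 304 reads were 106 in A, 104 in B, 12 in C, 67 in D, 7 in E and 8 in F, and its shares were 5.58% apart from those of *Pax3*. *Pax8*, a regulator of thyroid and kidney development, had 31, 31, 3, 18, 0 and 8 reads and was 9.75% apart, at place 26. *Pax6*, known for eye development, had 42, 31, 27, 41, 9 and 4 reads and was 20% apart, at place 188. Library C was thus low in *Dach1* and *Pax8* but not in *Pax6*.

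**Figure D4:**
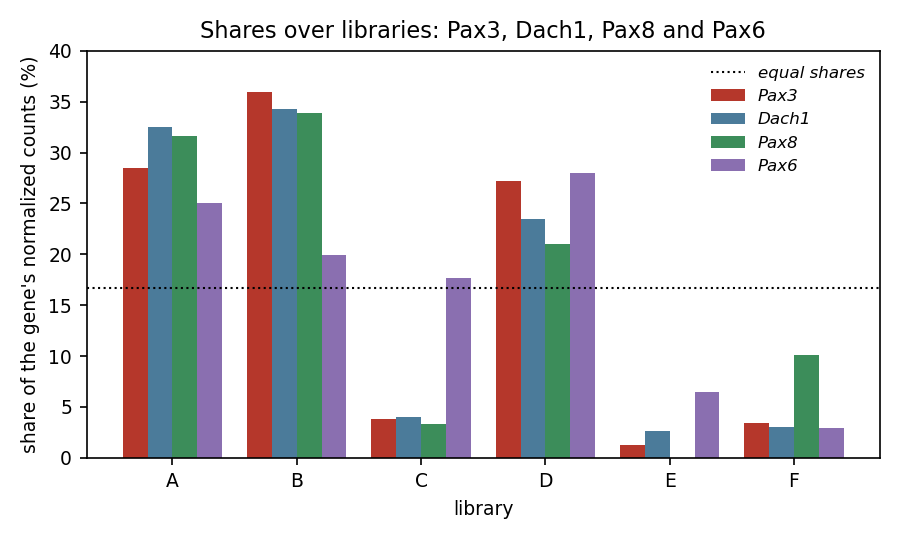
Share of the normalized counts of *Pax3*, *Dach1*, *Pax8* and *Pax6* (vertical axis, percent) that each library holds (horizontal axis). Libraries A, B and D hold 28.5%, 35.9% and 27.2% of *Pax3*, and the dotted line marks equal shares.

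Of 11 other Pax-, Six-, Eya- and Dach-family genes, 5 had a mean of at least 10, beside 56.9% of all genes of the table. A mean of at least 50 was reached by 2 of them. *Eya3* was the highest with 3319 normalized counts, above *Eya1* also per kilobase (640), followed by *Eya4* with 834. *Pax2*, *Pax4* and *Six6*, which act in kidney, pancreas and eye, had no reads. *Pax5* had 2 reads, both in library D. *Six3* had 0, 0, 4, 5, 0 and 2 reads from A to F and *Dach2* 5, 8, 6, 0, 7 and 1.

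Of 23 partners and targets of these factors, 13 had a mean of at least 10, beside 56.9% of all genes of the table. Per kilobase, *Osr1*, which marks nephron progenitors, was at 871 normalized counts. *Met*, a receptor gene activated by *Pax3* in migrating muscle progenitors, was at 566 and *Bmp4*, a growth factor gene, at 410. *Msx1* with 269, *Dmpk*, the neighbour of *Six5*, with 255 and *Tbx18* with 205 were also above the median of 126 for genes with reads. *Meox2* with 101, *Mitf* with 40.6, *Sall1* with 39.2 and *Ret* with 20.9 per kilobase were below it. *Gdnf*, which has no matched length, had a mean of 316 normalized counts. *Tcf15* had 4 reads and *Lbx1* had 1. The sclerotome gene *Nkx3-2*, a target of *Pax1* and *Pax9*, had 19, 38, 12, 24, 16 and 16 reads from A to F, and thus showed no such contrast as *Pax3*.

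Markers of cell types in which the members are known to act, and of some others, differed in level within each list. The counts of markers with a mean of at least 10 below stand beside 56.9% of all genes of the table. The muscle regulators *Myf5*, *Myf6* and *Myod1* had no reads, and *Myog* had 4, all in library A. Of 8 skeletal muscle markers, 3 had a mean of at least 10, namely *Acta1* with 4711 normalized counts, *Des* with 59.6 and *Actn2* with 12.3. *Acta1*, the skeletal muscle actin gene, was thus high while the muscle regulators were at or near 0. Of 7 neural crest and melanocyte markers, 1 did (*Ednrb*, with 122), and *Foxd3* had no reads. *Sox10*, which acts with *Pax3* in the neural crest, had 1, 1, 10, 14, 20 and 2 reads, unlike *Pax3*. All 6 nephron progenitor markers had a mean of at least 10, among them the member *Eya1*, the lowest being *Cited1* with 34, 29, 21, 22, 53 and 56 reads. Per kilobase, *Cited1* (63.3), *Sall1* and *Wt1* (97.2) were below the median of genes with reads. Of 6 pharyngeal and thymic epithelium markers, 3 had a mean of at least 10, with *Gcm2* at 0. *Foxn1*, a regulator of the thymic epithelium, had 118, 90, 89, 86, 80 and 75 reads, a much smaller contrast than *Pax3*. *Cdh1*, an epithelial cadherin gene, had 9, 4, 152, 6, 105 and 113 reads, while *Krt8* had 10, 26, 30, 33, 38 and 21 and *Epcam* 1, 7, 4, 0, 17 and 1. Of 5 cartilage markers, 3 did, and *Acan* had 31, 31, 0, 21, 1 and 5 reads. Of 9 markers over all lists with a mean from 10 to 90 and 1 solution, 3 had C, E and F as their highest libraries. The share over all 2576 genes of this kind was 19.3%. The 3 markers were *Cdh1*, *Actn2* with 6, 1, 21, 6, 16 and 22 reads, and *Csf1r*, a macrophage receptor gene, with 25, 31, 51, 26, 53 and 51. 1 marker, *Acan*, was highest in A, B and D, beside 21% of those genes. With so few markers, these counts are given as values only. The part of such cells in the *Pax3*, *Pax9*, *Pax1* and *Six2* values was not tested. All 5 mesothelium markers had a mean of at least 10, as did 2 of 4 endothelium and 2 of 4 macrophage markers. *Wt1* stands in both the mesothelium and the nephron progenitor list. In these bulk cultures, fewer cells of a type and less RNA per cell cannot be told apart.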

How the data were processed

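RNA was sequenced from 3 WT and 3 *Anp32e* null MEF cultures. Per the labels and the methods, the authors used STAR for alignment to mm10, featureCounts for counts on RefSeq transcripts, and DESeq2, with default settings. The signal column used here is the authors' deposited mean of size-factor-normalized counts over the 6 libraries, for 42361 transcripts. The other columns hold the authors' comparison of the genotypes (fold change, its standard error, test statistic and p-values) and were not used. The planned count test was not run, since the column used names no library. Nothing in the labels says whether replicates were separate derivations.

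RefSeq (GRCm38.p6) matched 42203 transcripts to genes, and 158 were not matched. Transcript lengths came from GENCODE M21 and covered 88.2% of genes with reads. A whole-read solution had to match the mean within 0.5 units of its last printed digit plus machine rounding, and means up to 90 were searched for all genes. The search was tested on 1 simulated table. Genes were named by a fixed list, of which 1 gene is left out of all values and counts here, with the 3 genes nearest to *Pax3*, the only member with a mean of at least 10 and 1 solution. The members and lists were chosen with earlier results of these data known. Python 3.11.15, numpy 2.4.6, pandas 2.3.3, numba 0.67.0, scipy 1.17.1 and matplotlib 3.10.9 were used. Alternatives were other transcripts, lengths, mean thresholds, tolerances and scalings, and leaving out each library.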

Additional observations from a re-analysis of the deposited data

How the results depend on the processing

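Of 68 alternatives computed, 54 left their value close to the reported one (for a ratio or a count, within 1.5 times) and 14 moved it. Many of the 54 could not move, so this count is no measure of stability. Leaving out a library that is neither highest nor lowest cannot change a ratio. The mean over transcripts cannot differ for genes with only 1 mean. *Six4* depends on the transcript, with 446 normalized counts as the mean of both transcripts and 211 for the second. Coding length or no division by length each swapped 2 members, *Six4* and *Six5*. Against genes with a mean of at least 10, 1 member (*Eya1*) lay above the median, in place of 2. A minimum mean of 50 left 2 of the 5 other network genes. Adding 0.5 normalized counts moved the ratio of highest to lowest library to 36.2 for *Pax1* and 30.2 for *Eya2*. Leaving out each library in turn gave 10.5 to 28.8 for *Pax3*, 1.47 to 6.64 for *Pax1*, 2.70 to 5.12 for *Eya2*, 6.11 to 8.81 for *Pax9* and 1.70 to 1.87 for *Six2*. A tolerance 10 times as wide gave *Pax3* a second solution, with 38, 217, 155, 43, 75 and 0 reads, whose mean misses the printed one by 1.52 times the rounding of the last digit, against 0.453 times for the reads given. It raised the solutions to 200 for *Pax9* and 462 for *Six2*, whose reads given kept 18.8% and 34.1% of the weight. For *Pax9* another solution then led, with a ratio of 1.74, so its reads are less certain than those of *Pax3*. Alternatives added after seeing the data were other genes behind the weights or no density term. They kept the leading solution at 99.4% to 100% for *Pax9* and 93.46% to 99.79% for *Six2*. All of them weigh the same solutions by the pattern of other genes, so they cannot show a wrong choice.

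No paired analysis was possible because the libraries recovered from the table carry no replicate number or genotype. For the same reason, the count test of *Anp32e* null against WT and its alternatives (another tool, no filter, each replicate left out) were not run. Depth limits *Pax1*, *Pax7* and *Eya2*, whose values rest on 23, 1 and 38 reads.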

Other observations

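The values of *Pax3* and *Dach1* fell into 2 separate clusters of libraries. Of 2576 genes with a mean from 10 to 90 and 1 solution, 21% were likewise highest in A, B and D, and 19.3% in C, E and F. The clusters are thus not particular to these genes. *Pax3* had 166, 194 and 138 reads in A, B and D and 20, 6 and 16 in C, E and F. *Dach1* had 106, 104 and 67 against 12, 7 and 8. *Tbx1*, a pharyngeal regulator, had 0, 5 and 0 reads in A, B and D and 9, 8 and 15 in C, E and F, so its 3 highest libraries were those that hold the reads of *Pax1*, with a small gap to B. The somite gene *Uncx* did not follow these clusters, with 1, 0, 2, 6, 13 and 4 reads from A to F, and neither did *Meox1*, with 38, 12, 5, 36, 9 and 15. The means of *Pax1*, *Tbx1* and *Uncx* were under 10, so the shares above do not cover them. The genotype of each library is unknown here, so these clusters are given as values only.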
